A study of Mus musculus with 9 samples.

Results

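The endosomal sorting complexes required for transport (ESCRT) were examined in long-term hematopoietic stem cells (LT-HSCs) lacking class IA PI3K isoforms through 10 genes, Hgs, Stam, Stam2, Tsg101, Vps28, Vps4a, Vps4b, Pdcd6ip, Chmp2a and Chmp4b, chosen by gene symbol from the table of raw read counts. Of the 47643 genes in that table, 9 carried a symbol of these 10, and each of the 9 passed the filter on low counts. Vps28 had no row under its identifier in the annotation used and was not analysed here. ESCRT-0, a pair of HGS (also called HRS) and a STAM protein, sits on early endosomes, where HGS binds phosphatidylinositol 3-phosphate (PI3P) and ubiquitin on receptors to be degraded. ESCRT-I, which holds TSG101, and ALIX, the product of Pdcd6ip, pass the cargo on to ESCRT-III, whose CHMP proteins polymerize on the membrane and cut vesicles off into the lumen of the endosome. The ATPases VPS4A and VPS4B then take the polymer apart. The same machinery sorts signaling receptors such as c-Kit to lysosomes and takes part in closing autophagosomes.

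RNA came from 3 genotypes of donor mice on the C57BL/6 background, with 3 libraries each and 9 in all. TKO donors carried Pik3ca lox/lox, Pik3cb lox/lox, Pik3cd-/- and Mx1-Cre, in which the interferon-inducible Mx1 promoter drives the recombinase. δKO donors were littermates with the same Pik3ca lox/lox, Pik3cb lox/lox and Pik3cd-/- alleles but no Cre, and WT donors carried Mx1-Cre alone. The germline loss of Pik3cd was therefore shared by TKO and δKO, whereas Cre was shared by TKO and WT. Whole bone marrow of young adult donors was given to lethally irradiated B6.SJL recipients, all of which were injected with pIpC, an inducer of interferon, 2 times at 250 μg and 48 hours apart. LT-HSCs of donor origin, negative for lineage markers, Flk2 and CD48 and positive for cKit, Sca1 and CD150, were sorted 4 weeks after pIpC. The methods state that the marrow of the 7 recipients in a group was pooled before staining, and nothing ties a library to a separate animal, so p-values measure the spread between libraries, which may be technical. The δKO column whose number matches no label is called the unnumbered δKO library.

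Depth ranged from 31300343 to 60386097 counts per library. δKO replicate 1 and the unnumbered δKO library had counts on 18180 and 18500 genes and the other 7 libraries on 19703 to 22703. None of the 10 HSC markers was at 0 in any library, and their summed level was 1390 to 1682 CPM in WT, 1405 to 3043 CPM in δKO and 1943 to 2419 CPM in TKO, so that every TKO library was above every WT library. Neutrophil markers varied far more, from 4944 to 11740 CPM in WT, 262 to 11460 CPM in δKO and 153 to 2998 CPM in TKO. Their sum was mostly Mpo in some libraries, with Mpo at 8958 CPM in WT replicate 1 and 7226 CPM in the unnumbered δKO library. In WT replicate 3 Mpo was at 1693 CPM of a sum of 10901 CPM. The sum does not tell neutrophils from their progenitors. The part of these marker levels in the results was not tested. Within genotypes, δKO replicate 1 and TKO replicate 2 stood apart, with a mean chi-square per gene of 510 to 533 between δKO replicate 1 and the other δKO libraries (216 between those) and of 389 to 395 between TKO replicate 2 and the other TKO libraries (128 between those). CPM are counts relative to the library total scaled by edgeR's TMM factors. Of the targeted genes, Pik3cb was at 25.5 to 33.9 CPM in TKO against 33.3 to 101 CPM in δKO, while Pik3ca, at 52.8 to 68.0 CPM in TKO, was within the δKO range. Pik3cd, for which counts over the whole gene can include reads outside the deleted part, was at 71.2 to 73.5 CPM in TKO, 38.5 to 91.2 CPM in δKO and 98.2 to 139 CPM in WT. All TKO and δKO libraries were thus below every WT library for Pik3cd, with δKO replicate 2 at 91.2 CPM nearest to WT.

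The members lie at separate loci of the mm10 genome. Hgs (ENSMUSG00000025793.15) spans chr11:120467635-120483979 on the plus strand, and its start is 28 bases from that of Arl16, a gene for an ARF-like GTPase on the opposite strand. No other gene of the count table shared an exon with Hgs, and none of its 3069 stretches of 50 bases recurred in the transcripts of another gene in the table. The annotation also holds a second, overlapping model of Hgs that has no row in the table, and whether reads were lost to it in the authors' counting is not given in the sources used here. Vps4b, Pdcd6ip and Chmp4b were likewise free of shared stretches, and Stam, Stam2, Vps4a and Chmp2a had 0.744% to 4% of theirs in other genes. Tsg101 shared 18.3% of its stretches with other genes, led by the pseudogene Tsg101-ps, and its counts are uncertain to that extent. Vps4a shares 57 exonic bases with Pdf on the opposite strand, and reads there cannot be assigned without strand.

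The upstream sequences of Hgs, Chmp4b and Vps4a are shown because these members had the widest differences between TKO and δKO. They were taken from the RefSeq promoter windows of build GRCm38.p6, in which all 9 members were found, and were cut to the longest run without an annotated exon in the 250 bases before the RefSeq start. For Chmp4b this run lies inside the span of the gene model of the count annotation, which begins further upstream at position 154651705. Each is given 5′ to 3′ on the strand of its gene, as chr11:120467608-120467634 (plus) for Hgs, chr2:154656776-154657017 (plus) for Chmp4b and chr8:107031019-107031156 (plus) for Vps4a, with capitals for matches to the motifs searched.
Hgs: ggcggcgcggaggcgttgcgcgtgcgc
Chmp4b: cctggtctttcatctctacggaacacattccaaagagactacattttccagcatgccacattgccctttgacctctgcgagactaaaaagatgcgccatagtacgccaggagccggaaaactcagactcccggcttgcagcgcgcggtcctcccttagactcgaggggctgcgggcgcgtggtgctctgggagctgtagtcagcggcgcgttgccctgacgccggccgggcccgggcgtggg
Vps4a: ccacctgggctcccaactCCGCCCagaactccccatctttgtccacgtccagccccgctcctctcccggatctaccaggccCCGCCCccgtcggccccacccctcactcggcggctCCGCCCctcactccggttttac
A total of 5 motifs were searched on both strands of the 250 bases before the start, in the members and in all 32817 promoter windows. The CCAAT-box, which binds NF-Y, was found in 33.8% of all windows, and Hgs held 4 of them, each within an exon of Arl16. The GC-box of Sp1 factors, read as GGGCGG, was found in 32.7% of all windows. Vps4a held 6 matches to it and Hgs 1, which reaches into an exon of Arl16, so the run printed for Hgs has no capitals. The E-box of TFEB and MYC factors, read as CACGTG, was found in 6.02% of all windows and in 1 member, Pdcd6ip. The motif of ETS factors, read as CCGGAAG, was found in 6.9% of all windows and in 1 member, Tsg101. The motif of FoxO factors, read as GTAAACA, was found in 3.16% of all windows and in no member, and Chmp4b matched none of the 5 motifs.

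Hgs, the PI3P- and ubiquitin-binding subunit of ESCRT-0, was lowest in TKO and highest in δKO. It stood at 17.3, 13.1 and 13.6 CPM in WT replicates 1 to 3. In δKO it was at 21.0 CPM in replicate 1, 22.2 CPM in replicate 2 and 37.9 CPM in the unnumbered library. In TKO it was at 13.4, 6.83 and 10.8 CPM in replicates 1 to 3, lowest in the TKO library that stood apart. Every δKO library was therefore above every WT and every TKO library, and TKO overlapped WT only through TKO replicate 1. Hgs was 2.61-fold lower in TKO than in δKO (log2 fold change -1.38 ± 0.466 SE, n = 3 per genotype, 95% interval -2.40 to -0.37), with a Benjamini-Hochberg adjusted p = 0.465 in edgeR's quasi-likelihood test, so it did not pass the threshold of 0.05. DESeq2 on the same 9 libraries gave -1.40 and an adjusted p = 0.0227, and by that test and a 2-fold change 1.12% of genes were called lower. Without the unnumbered δKO library the edgeR difference was -1.06 (adjusted p = 0.517), without TKO replicate 2 it was -1.16 (adjusted p = 0.534) and without δKO replicate 1 it was -1.54 (adjusted p = 0.273). The study displayed autophagy-related genes for TKO against δKO from these same data, so the direction of Hgs is not evidence independent of that display. Against WT, Hgs had a log2 fold change of 0.88 ± 0.461 in δKO (edgeR adjusted p = 0.699) and of -0.50 ± 0.459 in TKO (edgeR adjusted p = 1), so both genotypes departed from WT in the fitted values and in opposite directions, neither past the threshold. Leaving out each library in turn, the δKO to WT difference ran from 0.56 without the unnumbered δKO library to 1.04 without δKO replicate 1, and that of TKO to WT from -0.73 without TKO replicate 1 to -0.28 without TKO replicate 2.

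Beside these values, neutrophil markers summed to 262 CPM in δKO replicate 1, 4413 CPM in δKO replicate 2 and 11460 CPM in the unnumbered δKO library, and to 153, 2998 and 875 CPM in TKO replicates 1 to 3. Hgs has exons of 57.7% GC, above 90.8% of tested genes, and the median deviation of the fifth of genes highest in GC was -0.43 on the log2 scale in δKO replicate 1 and -0.19 in the unnumbered δKO library, where Hgs was high. The part of these marker transcripts, of GC content and of the number of genes detected in the Hgs values was not tested beyond the fits given here. With genes detected as a covariate the TKO to δKO difference of Hgs was -1.37 (adjusted p = 0.946 in edgeR). Lower RNA per cell and fewer cells with the transcript cannot be told apart in bulk libraries. Arl16, which starts beside Hgs, was at 1.75 to 7.26 CPM in WT, 0.332 to 6.42 CPM in δKO and 1.28 to 7.35 CPM in TKO, with a TKO to δKO log2 fold change of 0.13.

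**Figure D1:**
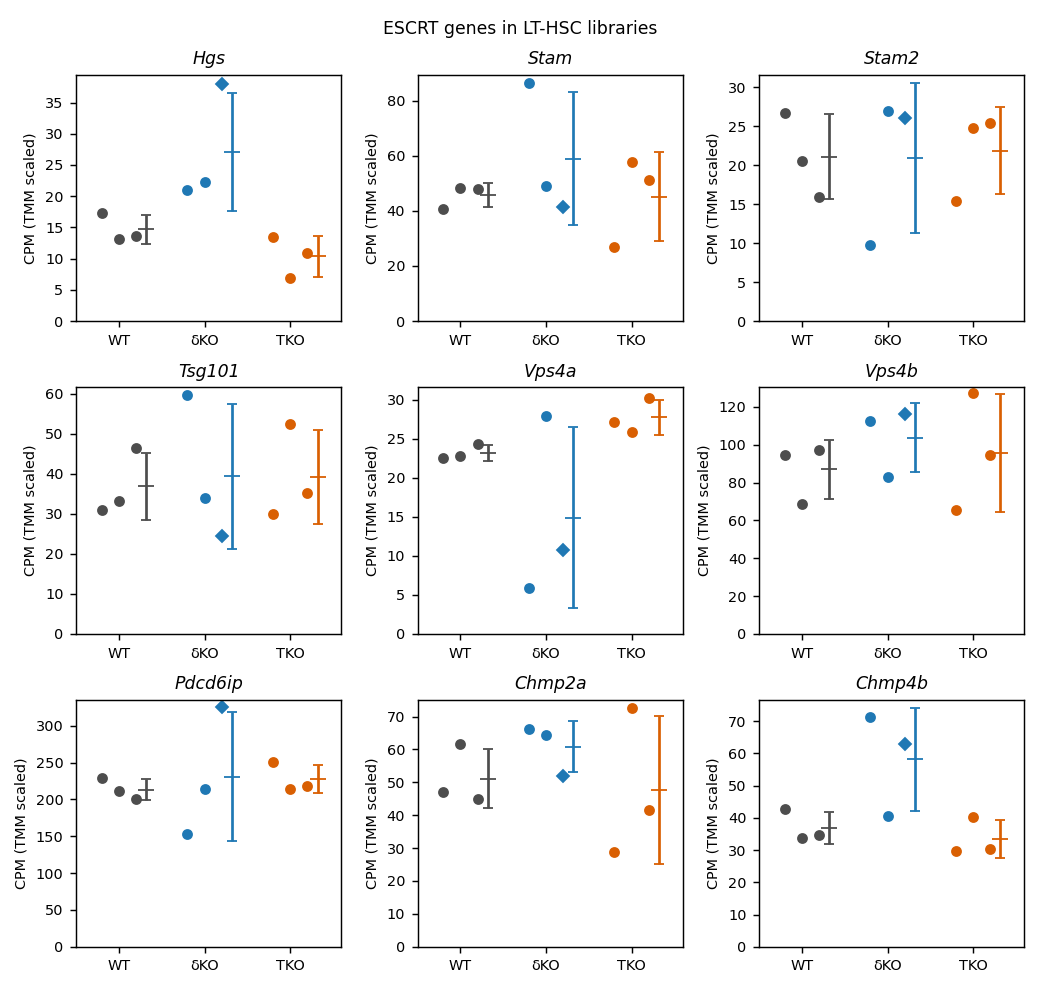
Level of each ESCRT gene in CPM (linear axes from 0) in WT, δKO and TKO libraries, where circles are numbered libraries, the diamond is the unnumbered δKO library and the bars give mean ± SD (n = 3). For Hgs the 3 δKO libraries, from 21.0 to 37.9 CPM, lie above all WT and TKO libraries.

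The partners of HGS in ESCRT-0, STAM and STAM2, which bind ubiquitin and recruit deubiquitinases, were measured in the same libraries, and the difference between Hgs and its partners was not tested. Stam was at 40.7 to 48.4 CPM in WT, 41.3 to 86.5 CPM in δKO and 26.7 to 57.7 CPM in TKO, so the genotypes overlapped. Its highest value belonged to δKO replicate 1 and its lowest to TKO replicate 1. Stam2 was at 16.0 to 26.7 CPM in WT, 9.77 to 26.9 CPM in δKO and 15.4 to 25.5 CPM in TKO, with its lowest value in δKO replicate 1. The TKO to δKO log2 fold changes were -0.38 ± 0.374 for Stam and 0.06 ± 0.476 for Stam2 (edgeR adjusted p = 0.751 and 0.976), and the 95% intervals of -1.20 to 0.44 and -0.98 to 1.10 leave room for a 2-fold difference in at least 1 direction. Without δKO replicate 1 the difference of Stam was -0.0010, and without TKO replicate 1 it was -0.12.

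Levels can be set against each other between genes only per length, as RPKM over the union of a gene's exons. On that scale Hgs exceeded Stam in 2 of the 3 δKO libraries, with 7.45 against 5.82 RPKM in replicate 2 and 12.7 against 4.93 RPKM in the unnumbered library. In δKO replicate 1 Hgs was at 7.04 and Stam at 10.3 RPKM. Hgs was also above Stam in WT replicate 1, at 5.79 against 4.85 RPKM, and below it in WT replicates 2 and 3, at 4.40 against 5.77 and 4.58 against 5.71 RPKM. In TKO replicates 2 and 3 Hgs was the lowest subunit of ESCRT-0, at 2.29 and 3.63 RPKM, below Stam2 at 4.12 and 4.24 RPKM. In TKO replicate 1 Hgs was the highest, at 4.49 RPKM, with Stam at 3.19 and Stam2 at 2.56 RPKM, and Stam was above Stam2 in all 3 TKO libraries. The ratio of Hgs to the sum of Stam and Stam2 averaged 0.549 ± 0.0723 for WT, 0.895 ± 0.420 for δKO and 0.447 ± 0.298 for TKO (mean ± SD, n = 3). TKO replicate 1 had a ratio of 0.781, inside the δKO range of 0.590 to 1.37, so the genotypes overlapped in this ratio.

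**Figure D2:**
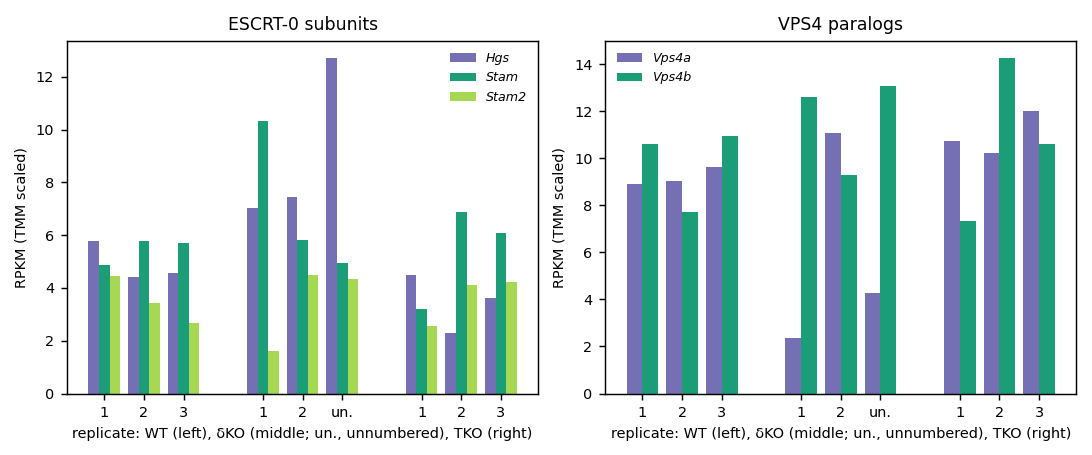
Per-length levels (RPKM, linear axis from 0) of the ESCRT-0 subunits and of the VPS4 paralogs in each of the 9 libraries, with 1 bar per gene and library. Hgs reached 12.7 RPKM in the unnumbered δKO library, and Vps4a dropped to 2.34 RPKM in δKO replicate 1.

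Tsg101, the ESCRT-I subunit that recognizes ubiquitinated cargo, had nearly the same mean in TKO and δKO. WT libraries had 36.9 ± 8.42 CPM, δKO libraries 39.3 ± 18.2 CPM and TKO libraries 39.2 ± 11.8 CPM (mean ± SD, n = 3). Its TKO to δKO log2 fold change was 0.00 at 2 decimals, with a 95% interval from -0.87 to 0.86 that includes changes short of 2-fold in either direction. Pdcd6ip, which encodes the ESCRT adaptor ALIX, was at 200 to 229 CPM in WT and 214 to 250 CPM in TKO. In δKO it ranged from 153 CPM in replicate 1 to 326 CPM in the unnumbered library, both outside the range of the other genotypes. The TKO to δKO log2 fold change of Pdcd6ip was -0.02 ± 0.270.

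Chmp4b, the main polymer-forming subunit of ESCRT-III, followed Hgs in having its highest values in δKO. It was at 42.7, 33.6 and 34.6 CPM in WT replicates 1 to 3. In δKO it was at 71.4 CPM in replicate 1, 40.5 CPM in replicate 2 and 62.9 CPM in the unnumbered library. In TKO it was at 29.8, 40.3 and 30.4 CPM in replicates 1 to 3. TKO lay below δKO without overlap, though TKO replicate 2 and δKO replicate 2 were 40.3 and 40.5 CPM, and WT replicate 1 was above δKO replicate 2. The TKO to δKO log2 fold change was -0.80 ± 0.320 (1.74-fold lower, 95% interval -1.50 to -0.10, edgeR adjusted p = 0.465), and that of δKO to WT was 0.66 ± 0.319 (edgeR adjusted p = 0.699). Without δKO replicate 1 and the unnumbered library, which leaves 1 δKO library whose spread is taken from the other groups, the δKO to WT difference was 0.13 and the TKO to δKO difference -0.28. With genes detected as a covariate the δKO to WT difference was 0.15 and the TKO to δKO difference -0.46. Chmp2a, a subunit that joins the growing polymer and recruits VPS4, overlapped between genotypes at 44.9 to 61.6 CPM in WT, 51.9 to 66.3 CPM in δKO and 28.8 to 72.6 CPM in TKO. Its TKO to δKO log2 fold change was -0.35 ± 0.353, and was -0.10 without TKO replicate 1 and -0.79 without TKO replicate 2.

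Vps4a and Vps4b, paralogs that encode the ATPase of the pathway, differed in how evenly they were detected. Vps4a was at 22.5, 22.8 and 24.3 CPM in WT replicates 1 to 3 and at 27.1, 25.8 and 30.2 CPM in TKO replicates 1 to 3. In δKO it was at 5.90 CPM in replicate 1, 28.0 CPM in replicate 2 and 10.8 CPM in the unnumbered library. The libraries with low Vps4a are the δKO libraries with the fewest genes detected, and δKO replicate 2 lay within the TKO range. The TKO to δKO log2 fold change was 0.89 ± 0.523 (edgeR adjusted p = 0.568) and was -0.02 without those 2 libraries. It was 0.51 without δKO replicate 1 and 1.72 without δKO replicate 2. The δKO to WT log2 fold change of Vps4a was -0.64, and was -0.26 without δKO replicate 1, -1.47 without δKO replicate 2 and 0.27 without both δKO libraries with the fewest genes detected. With genes detected as a covariate Vps4a gave -0.0007 for δKO to WT, 0.59 for TKO to δKO and 0.59 for TKO to WT. Every TKO library was above every WT library for Vps4a, by a log2 fold change of 0.26 ± 0.519 (edgeR adjusted p = 1). Vps4b was at 68.8 to 97.4 CPM in WT, 82.8 to 117 CPM in δKO and 65.3 to 127 CPM in TKO, with a TKO to δKO log2 fold change of -0.12 ± 0.297. Per length, Vps4b was 5.39 times Vps4a in δKO replicate 1 and 3.05 times in the unnumbered δKO library, and 0.682 to 1.39 times in the other 7 libraries.

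Across the members the mean per-length level fell from Chmp2a at 45.8 RPKM through Pdcd6ip at 32.5, Chmp4b at 21.2, Tsg101 at 14.1, Vps4b at 10.7, Vps4a at 8.70, Stam at 5.95 and Hgs at 5.82 to Stam2 at 3.54 RPKM. Chmp4b exceeded Tsg101 in 9 of 9 libraries, and Pdcd6ip exceeded Chmp4b in 8 of 9. Vps4b exceeded Vps4a in 5 of 9 libraries and Stam exceeded Hgs in 5 of 9, so these 2 pairs of neighbours could not be ranked. Hgs and Vps4a varied most, with 5.55-fold and 5.12-fold between the highest and the lowest library, against 1.95-fold to 3.24-fold for the other 7 members. The SD of log2 CPM over the 9 libraries was 0.70 for Hgs and 0.79 for Vps4a, where the median of all tested genes was 0.92. That median was taken with a small count added before logs, and the member values without it. It covers genes of all levels, whereas Hgs and Vps4a were at percentiles 60.1 and 64.3 of mean CPM, so it is not a comparison with genes of like level.

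Between TKO and δKO, 2 of 9 members were higher and 7 lower, with a median log2 fold change of -0.12. Of all 18205 tested genes, 47.2% were higher and their median was -0.06. Among the lower members, Tsg101, Vps4b and Pdcd6ip were higher with upper-quartile factors, at 0.15, 0.025 and 0.11. Genes counted as called had an adjusted p below 0.05 and differed by over 2-fold. No member was called by edgeR in this comparison, and neither was any other gene (0%). DESeq2 on all 9 libraries called 1 member, Hgs, among 551 genes in both directions, with 1.12% of genes called lower. At an unadjusted edgeR p under 0.05, 2 members were lower and 0 higher, where 5.56% of all genes were lower and 4.60% higher. Without overlap between groups, 2 members were lower and 0 higher, where 4.74% of all genes were lower and 6.98% higher. These 2 members were Hgs and Chmp4b in both counts.

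Between TKO and WT, 5 members were higher and 4 lower, with a median log2 fold change of 0.05, against 0.02 over all genes, of which 51.2% were higher. No member was called by edgeR (0.00549% of all genes were) or by DESeq2 (0.649%), and no member had an unadjusted edgeR p under 0.05, where 1.68% of genes were higher and 2.50% lower at that level. Vps4a was the 1 member without overlap, higher in TKO, where 6.88% of all genes were higher and 7.47% lower in that sense. Hgs had the largest difference of the members in this fit, at -0.50 with a 95% interval of -1.51 to 0.50. With genes detected as a covariate Vps4a was at 0.59 and Hgs at -0.51. Without TKO replicate 2 Chmp2a was at -0.54 and Hgs at -0.28.

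Between δKO and WT, 7 members were higher and 2 lower, with a median log2 fold change of 0.25, against 0.05 over all genes, of which 52.8% were higher. No member was called by edgeR (0.00549% of all genes were) or by DESeq2 (1.04%), and no member had an unadjusted edgeR p under 0.05, where 3.65% of genes were higher and 3.36% lower. Hgs was the 1 member without overlap, higher in δKO, where 4.13% of all genes were higher and 7.39% lower in that sense. This comparison shares the δKO libraries with that of TKO against δKO, so their values are not independent.

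**Figure D3:**
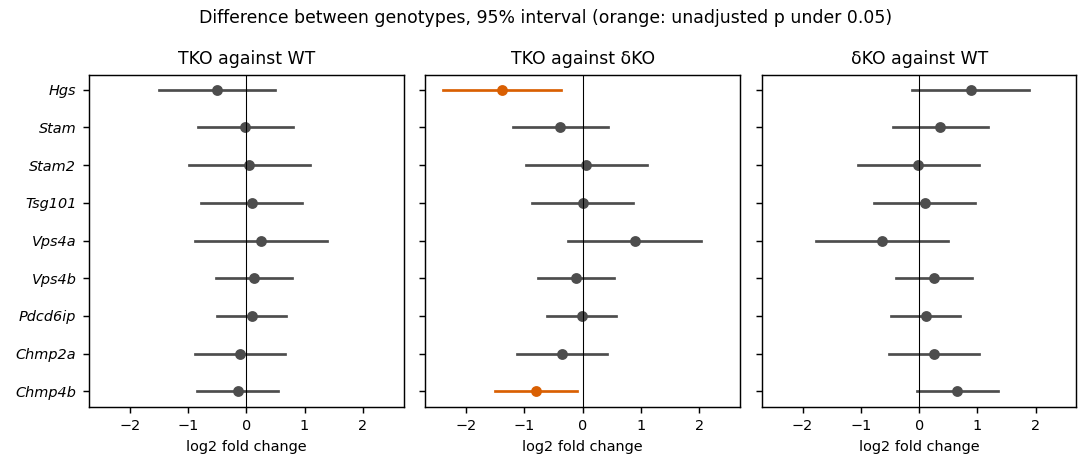
Log2 fold change of the 9 members in each comparison of genotypes from edgeR's quasi-likelihood fit (points) with 95% intervals (lines), orange where the unadjusted p was under 0.05. Hgs at -1.38 and Chmp4b at -0.80 in TKO against δKO are the intervals that exclude 0.

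The other genes of endosomal sorting were followed in 5 lists. Of 22 other ESCRT subunits, 20 were tested, and between TKO and δKO 14 were lower and 6 higher, with a median log2 fold change of -0.34, where 47.2% of all tested genes were higher. At an unadjusted p under 0.05, 1 of the 20 was lower and 0 higher, near the 5.56% and 4.60% of all genes. This gene, Mvb12a, an ESCRT-I subunit, was at 4.48 ± 0.396 CPM in TKO and 12.4 ± 7.15 CPM in δKO (log2 fold change -1.46, edgeR adjusted p = 0.465). Between TKO and WT its list had a median of 0.02 and 1 gene of the 20 lower at an unadjusted p under 0.05, where 2.50% of all genes were. That gene, Vps37c, another ESCRT-I subunit, was at 16.8 ± 3.82 CPM in TKO and 29.7 ± 4.85 CPM in WT (log2 fold change -0.82, edgeR adjusted p = 1). Members and other subunits together gave 29 tested ESCRT genes, with medians of -0.32 for TKO against δKO, 0.22 for δKO against WT and 0.03 for TKO against WT. Their median in a library, as log2 CPM centered on the 9 libraries, was 0.19 in δKO replicate 2 and 0.32 in the unnumbered δKO library but -0.15 in δKO replicate 1, and lay between -0.09 and 0.06 in WT and TKO libraries.

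Ubiquitin adaptors, ligases and deubiquitinases, which mark, bind or spare the cargo that ESCRT-0 receives, numbered 18, all tested. Between TKO and δKO 14 were lower and 4 higher, with a median of -0.43, and between δKO and WT 16 were higher and 2 lower, with a median of 0.42. Of all tested genes 47.2% were higher in the former comparison and 52.8% in the latter. At an unadjusted p under 0.05, 2 of the 18 were lower in TKO than in δKO (5.56% of all genes) and 1 was higher in δKO than in WT (3.65%). Itch, a ubiquitin ligase of the NEDD4 family, was at 93.7 ± 6.53 CPM in TKO, 175 ± 68.9 CPM in δKO and 105 ± 17.9 CPM in WT (TKO to δKO log2 fold change -0.90, edgeR adjusted p = 0.465). Its difference of δKO to WT was 0.73 (edgeR adjusted p = 0.699). Tollip, an adaptor that binds ubiquitin and PI3P, was at 40.7 ± 10.7 CPM in TKO and 85.0 ± 48.2 CPM in δKO, and the groups overlapped (log2 fold change -1.06, edgeR adjusted p = 0.465). Between TKO and WT no gene of this list reached an unadjusted p under 0.05, near the 1.68% of all genes that were higher and 2.50% that were lower at that level. In that comparison 12 of the list were higher and 6 lower, and 51.2% of all genes were higher. Without overlap between TKO and WT, 6 of the 18 were higher and 2 lower, where 6.88% of all genes were higher and 7.47% lower. The list as a whole was not tested.

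Genes of endosomal PI3P and of the passage from early to late endosomes, 20 in number, were 11 lower and 9 higher in TKO than in δKO, with a median of -0.08. At an unadjusted p under 0.05, 2 of the 20 were lower in TKO than in δKO (5.56% of all genes) and 1 was higher in TKO than in WT (1.68%). Rab11a, a GTPase of recycling endosomes, was at 27.9 ± 4.08 CPM in TKO and 51.4 ± 20.1 CPM in δKO (log2 fold change -0.88, edgeR adjusted p = 0.465). Rab7, the GTPase of late endosomes, was at 160 ± 21.3 CPM in TKO and 233 ± 34.8 CPM in δKO (log2 fold change -0.54, edgeR adjusted p = 0.465). Both were without overlap between TKO and δKO and also lower in each TKO library than in each WT library. Without overlap, 4.74% of all genes were lower and 6.98% higher in TKO against δKO, and 7.47% and 6.88% in TKO against WT. In this list 2 genes were lower and 2 higher without overlap in TKO against δKO, and 3 and 2 in TKO against WT. Rabep1, an effector of RAB5, was at 68.5 ± 4.02 CPM in TKO and 38.4 ± 15.4 CPM in WT (log2 fold change 0.84, edgeR adjusted p = 1). None of the 9 genes of the CORVET and HOPS tethers and none of the 11 genes of retromer and sorting nexins had an unadjusted edgeR p under 0.05 in any comparison. Of all genes 1.68% were higher and 2.50% lower at that level in TKO against WT, 4.60% and 5.56% in TKO against δKO and 3.65% and 3.36% in δKO against WT, so counts of 0 in lists of this size are near the background. No gene of the 5 lists was called by edgeR.

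**Figure D4:**
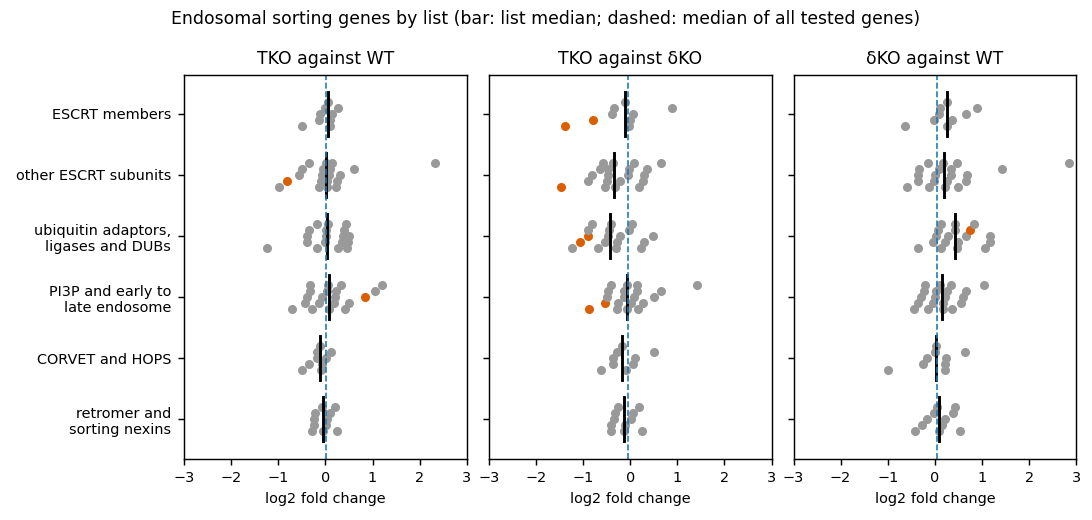
Log2 fold change of each tested gene (points, orange where the unadjusted p was under 0.05) by list in each comparison, with the list median (bar) and the median of all tested genes (dashed line). In TKO against δKO the medians of other ESCRT subunits, at -0.34, and of ubiquitin adaptors, ligases and deubiquitinases, at -0.43, lie to the left of the median of all genes, at -0.06.

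Of the 5 genes whose values were most like those of Hgs over the 9 libraries, 4 are given here, Mmd, Ippk, Rbmx and Gtf3c4, with a root mean square difference of centered log2 CPM of 0.235, 0.242, 0.284 and 0.290. Ippk, which encodes the kinase that makes inositol hexakisphosphate, was at 14.3 to 18.1 CPM in WT, 21.3 to 60.01 CPM in δKO and 5.81 to 15.3 CPM in TKO. These 4 genes had their lowest value in TKO replicate 2 and their highest in the unnumbered δKO library, as Hgs did. They were chosen for likeness to Hgs over these same 9 libraries, so this sharing follows from the choice and is not a separate result. Among the members Chmp4b was nearest to Hgs, at 0.504, which ranked 528 of 18204 genes, and Vps4a farthest, at 1.25. Stam and Stam2 ranked 4981 and 5348.

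**Figure D5:**
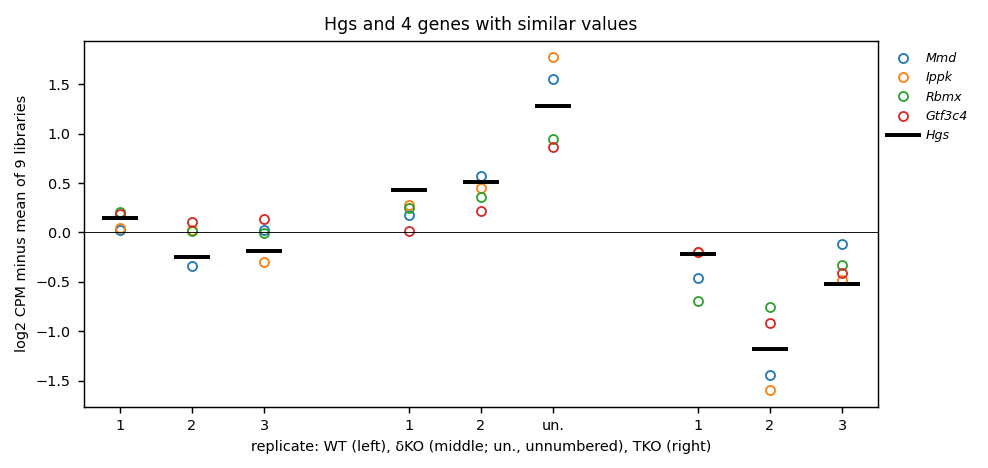
Log2 CPM of Hgs (bars) and of 4 of the 5 genes most like it (circles) in each library, centered on the mean of the 9 libraries. Values of Hgs run from -1.18 in TKO replicate 2 to 1.28 in the unnumbered δKO library.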

How the data were processed

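LT-HSC RNA was amplified with the Ovation RNA-Seq System V2, which is not stated to keep strand. The authors trimmed reads with Trim Galore 0.3.7, aligned them to mm10 with STAR 2.5.1b and deposited whole-number counts per gene. The annotation, and the way technical runs were combined, are not given in the sources used here. A deposited normalized table was not used. Of the gene identifiers, 47224 matched GENCODE vM21 without version.

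Counts were analysed with edgeR 4.0.16 in R 4.3.3: filterByExpr (count minimum 10, minimum total count 15; 18205 genes kept), TMM factors and a quasi-likelihood fit to all 9 libraries with 1 mean per genotype (6 residual degrees of freedom), with Benjamini-Hochberg adjustment over all tested genes. DESeq2 1.42.0 was an alternative. Errors are SE for fold changes and SD for levels. The biological coefficient of variation was 0.805, and the fit was tested on simulated data. Named genes were all members, Pik3ca, Pik3cb and Pik3cd, at most the 3 genes of each list with the smallest unadjusted p under 0.05 in each comparison, and the 5 genes most like Hgs, of which 1 is not reported here. Arl16 was named after its values were seen. Members and lists were chosen with earlier results of these data known. Figures were drawn with matplotlib 3.10.9.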

Additional observations from a re-analysis of the deposited data

How the results depend on the processing

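The 3 comparisons of the 9 members gave 27 results, each recomputed under 18 alternatives. In all 18 Hgs stayed lower in TKO than in δKO, from -1.62 to -1.06 on the log2 scale with adjusted p from 0.0227 to 0.946, and DESeq2 on all 9 libraries (-1.40, adjusted p = 0.0227) was the 1 alternative that called it; the cause was not tested. In DESeq2 fitted to the groups compared it was not called (adjusted p = 0.134). Of the recomputed values, 427 kept their direction and side of the threshold and 58 changed sign, none of which was called. The sign changes were in members other than Hgs and Chmp4b. Spread between libraries, not counts per gene, limits precision, since members had 148 to 13634 counts per library.

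Upper-quartile factors moved the median of all genes from -0.06 to 0.08 for TKO against δKO and from 0.05 to -0.10 for δKO against WT. With them the TKO to δKO differences were 0.15 for Tsg101, 0.025 for Vps4b and 0.11 for Pdcd6ip, the δKO to WT differences were -0.10 for Tsg101 and -0.033 for Pdcd6ip, and the δKO to WT median of ESCRT genes was 0.061. Stam2 in δKO against WT was 0.0084 with RLE factors, 0.0080 with DESeq2 on all 9 libraries and 0.012 with DESeq2 on the groups compared. Tsg101 in TKO against δKO was 0.0001 without the filter on low counts and 0.0042 with edgeR on the groups compared. With genes detected as a covariate, TKO against WT gave -0.040 for Tsg101, TKO against δKO gave -0.061 for Stam2, 0.19 for Tsg101, 0.11 for Vps4b and 0.013 for Pdcd6ip, and δKO against WT gave 0.19 for Stam2, -0.23 for Tsg101 and -0.11 for Vps4b.

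Deviations from the genotype mean correlated across genes at -0.003 to 0.083 for same-numbered libraries and at -0.070 to 0.065 for differently numbered ones. With so few libraries per genotype, these values cannot decide whether the numbers pair the libraries. With the replicate block, which leaves out the unnumbered δKO library, Stam2 in TKO against WT was -0.0073, Pdcd6ip was 0.35 in TKO against δKO and -0.26 in δKO against WT, and the median of ESCRT genes was -0.14 in TKO against δKO and 0.071 in δKO against WT. Without δKO replicate 1 and the unnumbered δKO library, an alternative chosen after seeing the data, these medians were -0.12 and 0.064. TKO against δKO then gave -0.31 for Stam2, 0.21 for Tsg101, -0.016 for Vps4a, 0.20 for Vps4b and 0.087 for Pdcd6ip, and δKO against WT gave 0.35 for Stam2, -0.12 for Tsg101, 0.27 for Vps4a and -0.071 for Vps4b.

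Leaving out each library in turn, TKO against WT ranged from -0.23 to 0.25 for Stam, -0.12 to 0.26 for Stam2, -0.18 to 0.29 for Tsg101, -0.13 to 0.35 for Vps4b and -0.54 to 0.15 for Chmp2a. TKO against δKO ranged from -0.60 to -0.0010 for Stam, -0.79 to -0.096 for Chmp2a, 0.51 to 1.72 for Vps4a, -1.01 to -0.63 for Chmp4b, -0.28 to 0.28 for Stam2, -0.27 to 0.42 for Tsg101, -0.38 to 0.091 for Vps4b and -0.25 to 0.31 for Pdcd6ip. δKO against WT ranged from -0.018 to 0.57 for Stam, -1.47 to -0.26 for Vps4a, -0.23 to 0.33 for Stam2, -0.34 to 0.34 for Tsg101 and -0.22 to 0.34 for Pdcd6ip. The medians of ESCRT genes ranged from -0.07 to 0.08, from -0.32 to -0.21 and from 0.11 to 0.29 in these comparisons.

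Counts of all genes called depended on the tool. For TKO against WT edgeR called 1 gene, edgeR on the groups compared 9, edgeR without both δKO libraries 9, DESeq2 125 and DESeq2 on the groups compared 574, and leaving out a library gave 1 to 4 (4 without δKO replicate 1). For TKO against δKO edgeR called 0 (1851 at an unadjusted p under 0.05), DESeq2 551 and DESeq2 on the groups compared 267. For δKO against WT edgeR called 1, edgeR on the groups compared 0, DESeq2 191 and DESeq2 on the groups compared 194.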
